A study of Mus musculus with 3 samples.

Results

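Mouse embryonic fibroblasts kept in medium bC6FAE[10] were compared with the same cells kept in medium bC6FAE[2], whose names differ only in the number in brackets. The 2 media filled 7 wells of 1 plate, 4 of bC6FAE[10] and 3 of bC6FAE[2], out of 274 columns in a count table that covers 3 plates. The wells were chosen by column name alone. The labels give all plates as wild-type embryonic fibroblasts from embryo, treated for 4 days with CFAE+8 medium and compounds from a purchased library. The wells compared here carry a medium name in place of a compound name. What the letters and numbers in the medium names stand for, and the unit of the bracketed numbers, are stated in none of the sources used here, so both names are used as they stand. The other media wells of the plate were named MEF (4 wells), basal (3), bCFAE (3), bC8FAE (5), bCLFAE (4) and bCSFAE (4), and entered the same fit, 30 wells in all. No source says whether wells of 1 medium were separate cultures, so p-values measure the spread between these wells, which may be technical. DRUG-seq2 tags the RNA of each well with a barcode during reverse transcription, so that a whole plate is pooled and sequenced as a single library.

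The series title names CDK8, a kinase of the Mediator complex, as a barrier in cell reprogramming, and the comparison asks what the step between the bracketed numbers changed. Fibroblasts in culture carry part of a contractile programme: smooth muscle actin, myosin light chain and actin-binding LIM proteins assemble stress fibres. Serum response factor, which binds a DNA element called the CArG box, drives many of these genes. Fibroblasts also secrete matrix proteins, the matrix metalloproteinases that cut them and the inhibitors of those proteinases. Several metalloproteinase genes are known targets of AP-1, a dimer of Fos and Jun proteins.

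Of 6985 genes tested with edgeR's quasi-likelihood test, 28 (0.401%) passed an adjusted p (Benjamini-Hochberg) of 0.05. There were 18 genes higher in bC6FAE[10] (0.258% of those tested) and 10 lower (0.143%), and 15 of the 28 changed at least 2-fold. The genes that rose included the contractile genes Acta2, Acta1, Myl9, Fhl1 and Csrp1, the matrix genes Col26a1 and Smoc2, the chemokine gene Cxcl14 and the neuronal gene Nrgn. The genes that fell included Spp1, Mmp3, Mmp10, Timp1, Mcpt8 and Ccl12. Acta2 and Spp1 were the 2 genes with an adjusted p under 0.05 in each of the 7 fits that left out 1 well and in each other refit. Under a rule that also asks for a 2-fold change, Acta2, just under 2-fold, was not called. The counts depended on single wells: without bC6FAE[2] well 1, 2 genes were higher and 2 lower, and without bC6FAE[2] well 2, 5 and 2. Without bC6FAE[10] well 4 they were 11 and 4, and without bC6FAE[2] well 3, 14 and 6. With the 7 wells alone in the fit, 88 of 5581 genes were called (1.58%), all 28 among them. Levels are given as CPM, counts per 1000000 counts of a well after edgeR's TMM scaling.

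**Figure D1:**
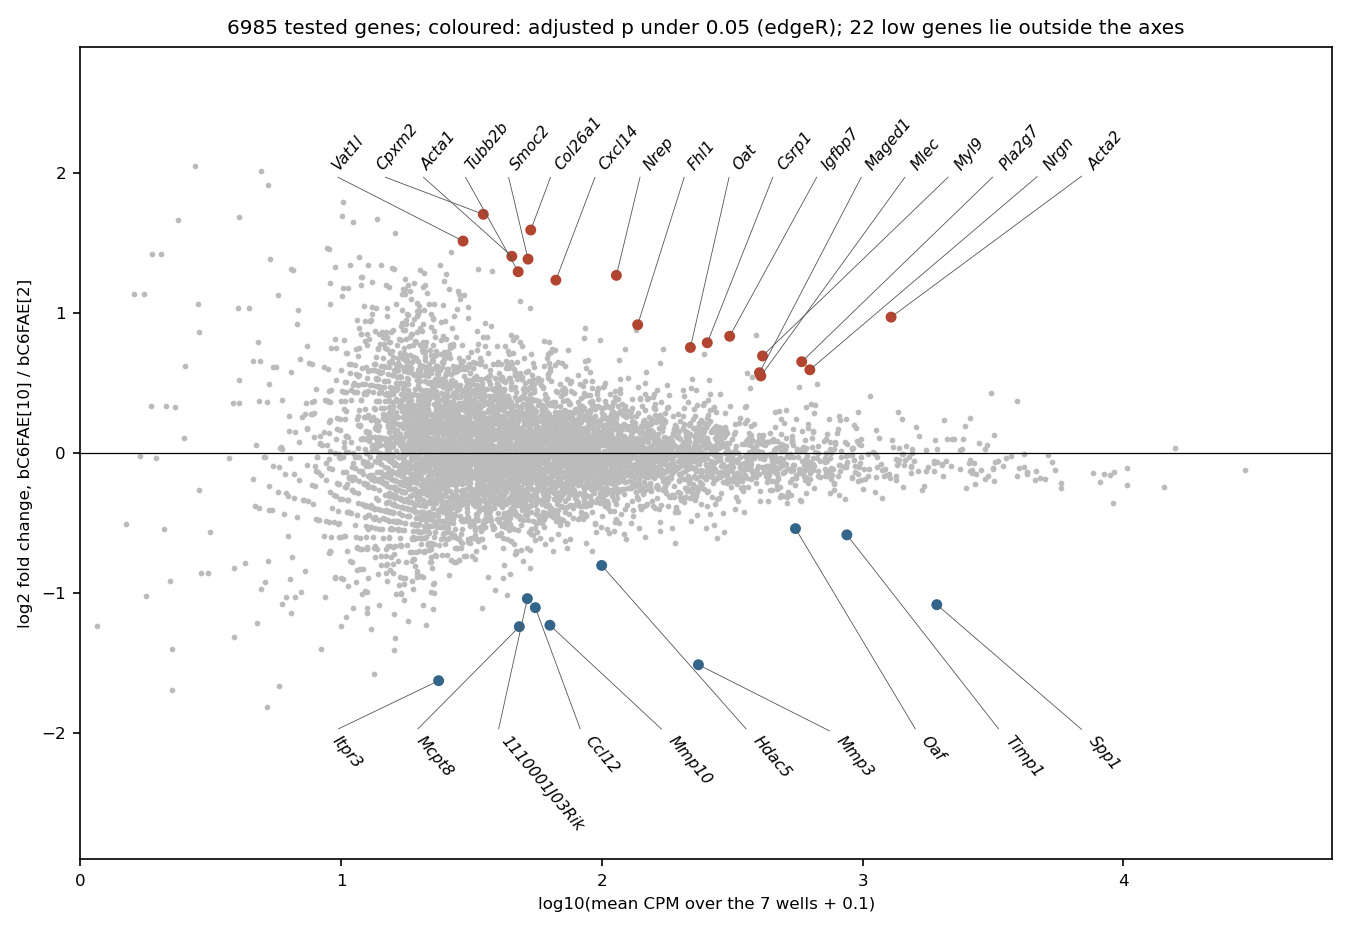
Log2 fold change of bC6FAE[10] over bC6FAE[2] (vertical axis) against log10 of the mean CPM of the 7 wells plus 0.1 (horizontal axis) for each tested gene; red and blue points are the 18 genes called higher and the 10 called lower. Most called genes of large fold lie at the left, at low CPM, while Acta2 and Spp1 stand apart at the right, and 22 genes of low CPM lie outside the axes.

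Promoter sequences are shown for the called genes whose promoter window held either motif, since the contractile genes and the metalloproteinases moved in opposite directions. RefSeq windows (mouse build GRCm38.p6, from 250 bases before to 50 after the start) matched 14 of the 18 higher and 9 of the 10 lower genes. The CArG box was searched as CCWWWWWWGG, where W is A or T. This box was in the window of 3 of those 14 higher genes (21.4%) and of 0 of the 9 lower genes. Over all tested genes with a window it was in 94 of 5340 (1.76%). The contractile genes Acta2 and Csrp1 had a window without a match. Boxes with a G or C in place of a W were not searched, so a window without a match may still hold such a box. The motif TGANTCA, with any base at N, is a loose form of the AP-1 element. It was in 0 of the 14, in 2 of the 9 (22.2%) and in 316 of the 5340 (5.92%). Both motifs read the same on both strands and were searched on both. A match is a description of these letters, not a bound site. Capitals mark the match. The first 3 stretches are CArG boxes, on the minus strand of chr8:123894776-123895025 for Acta1, the plus strand of chrX:56779524-56779682 for Fhl1 and the plus strand of chr2:156775214-156775419 for Myl9. The last 2 are TGANTCA matches, on the plus strand of chr9:7445572-7445821 for Mmp3 and chr9:7502092-7502341 for Mmp10. The match begins 73 bases before the RefSeq start of the window in Acta1, 102 in Fhl1, 161 in Myl9, 46 in Mmp3 and 63 in Mmp10. That start differs from the GENCODE gene start used for the positions below: the Myl9 match lies 117 bases before the latter, and the Fhl1 window belongs to a start 47896 bases inside the gene. The Fhl1 and Myl9 stretches are shorter, 159 and 206 of 250 bases, because annotated exons were left out.
Acta1: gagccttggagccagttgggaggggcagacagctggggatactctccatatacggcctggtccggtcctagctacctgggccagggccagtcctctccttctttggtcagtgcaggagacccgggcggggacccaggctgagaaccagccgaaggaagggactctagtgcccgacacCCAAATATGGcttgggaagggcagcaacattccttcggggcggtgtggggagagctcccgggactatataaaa
Fhl1: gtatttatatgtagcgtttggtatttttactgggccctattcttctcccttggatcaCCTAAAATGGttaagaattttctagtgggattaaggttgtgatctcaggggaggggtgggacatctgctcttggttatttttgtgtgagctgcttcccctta
Myl9: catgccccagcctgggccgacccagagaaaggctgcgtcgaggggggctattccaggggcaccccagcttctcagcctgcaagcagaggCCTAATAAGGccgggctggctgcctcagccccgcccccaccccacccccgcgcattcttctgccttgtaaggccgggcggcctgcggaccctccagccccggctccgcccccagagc
Mmp3: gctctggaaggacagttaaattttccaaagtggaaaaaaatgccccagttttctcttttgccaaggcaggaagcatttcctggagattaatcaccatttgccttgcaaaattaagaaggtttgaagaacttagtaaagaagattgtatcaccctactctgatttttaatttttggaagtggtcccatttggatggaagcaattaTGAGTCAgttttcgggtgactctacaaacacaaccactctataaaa
Mmp10: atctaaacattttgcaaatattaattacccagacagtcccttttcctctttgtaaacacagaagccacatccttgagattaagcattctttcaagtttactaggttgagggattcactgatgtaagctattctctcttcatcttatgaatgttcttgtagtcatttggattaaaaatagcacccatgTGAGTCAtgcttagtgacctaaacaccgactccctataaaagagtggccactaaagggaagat

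The 7 wells were of similar depth. Totals were 430659 to 530273 counts in bC6FAE[10] and 325730 to 504817 in bC6FAE[2] (exact two-sided permutation test of the means over 35 splits, p = 0.486, where the smallest possible p is 0.0286). Genes with a count numbered 11412 to 11978 and 10860 to 11708. Ribosomal protein genes took 17.4% ± 0.251 (SD, n = 4) of counts in bC6FAE[10] and 18.4% ± 0.605 (SD, n = 3) in bC6FAE[2], without overlap (exact permutation test, p = 0.0286). The 10 genes with most counts took 11.4% ± 0.329 (SD, n = 4) and 12.4% ± 0.558 (SD, n = 3), also without overlap (exact permutation test, p = 0.0286). These were 2 of 5 well measures tested, and their p-values are unadjusted. With the ribosomal protein genes and the mitochondrial ones left out of the fit, all 28 genes were still called, among 23 higher and 11 lower. The 10 genes with most counts were not left out as a set. Markers of fibroblasts summed to 12900 to 14190 CPM in bC6FAE[10] and 11770 to 12360 in bC6FAE[2], with 0 of 28 at 0 in either medium. Epithelial markers summed to 92.1 to 131 and 58.9 to 202 CPM, with 10 and 8 of 17 at 0, Epcam and Cdh1 among them in both media. Endothelial markers summed to 127 to 175 and 112 to 135 CPM, with 5 and 6 of 12 at 0, Pecam1 among them in both. Fat cell markers summed to 4.79 to 23.1 and 6.61 to 25.6 CPM, with Adipoq at 0 in both. In such bulk wells, fewer cells of a kind and less RNA per cell cannot be told apart.

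Some contractile genes rose. Of 24 tested genes on a list of smooth muscle and serum response factor targets, 5 were called higher and 0 lower, with a median log2 fold change of 0.19 beside 0.0018 over all tested genes. Another 3 members, Actg2, Cnn1 and Actn1, were higher at an unadjusted p under 0.05 but missed the adjusted threshold. That made 8 of 24, where 4.11% of all tested genes were higher at that level. Wells of the 2 media did not overlap, bC6FAE[10] higher, for 10 of the 24, beside 5.08% of all tested genes.

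Acta2 (chr19:34241090-34255590, minus strand, mm10) encodes smooth muscle alpha-actin, the usual marker of activated fibroblasts. It was at 1688, 1475, 1605 and 1731 CPM in bC6FAE[10] wells 1 to 4 and at 786, 807 and 899 CPM in bC6FAE[2] wells 1 to 3. The lowest bC6FAE[10] well lay well above the highest bC6FAE[2] well. The means were 1625 ± 113 (SD, n = 4) and 831 ± 59.6 CPM (SD, n = 3), a log2 fold change of 0.97 ± 0.14 (SE) with an adjusted p of 6.5e-06 (edgeR). With 1 well left out, its highest adjusted p was 0.00091.

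Acta1 (chr8:123891769-123894751) encodes the skeletal muscle alpha-actin, which shares long stretches of sequence with Acta2. Its values were 80.9, 59.7, 43.1 and 60.6 CPM against 21.0, 23.3 and 26.4 CPM, a log2 fold change of 1.40 ± 0.31 (adjusted p = 0.0098). All 4 bC6FAE[10] wells were above all 3 bC6FAE[2] wells, but bC6FAE[10] well 1 was nearly 2-fold above well 3. No source used here says how reads that match more than 1 actin gene were counted, so the split between the muscle actins is uncertain. Acta1 was the 1 called gene among the 2 tested genes of the skeletal muscle list. That list summed to 81.5 to 175 CPM in bC6FAE[10] and 62.8 to 71.5 CPM in bC6FAE[2], and without Acta1 to 38.3 to 94.4 and 39.5 to 50.5 CPM, with overlap. Of its 14 genes in the table, Myf6, Pax7 and Pax3 were at 0 in all 7 wells, Myod1 in bC6FAE[10] alone, and Myog, Myh3 and Ckm in bC6FAE[2] alone. The part of these markers in the rise of Acta1 was not tested.

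Myl9 (chr2:156775420-156781658) encodes the regulatory light chain of smooth muscle and non-muscle myosin. It was at 476, 392, 479 and 625 CPM in bC6FAE[10] and 240, 354 and 324 CPM in bC6FAE[2] (log2 0.69 ± 0.15, adjusted p = 0.0053). The groups came close without overlap, and bC6FAE[10] well 4 was the high one. Csrp1 (chr1:135720061-135752232), a LIM protein that binds alpha-actinin, was at 318, 275, 321 and 318 CPM against 156, 172 and 215 CPM (log2 0.79 ± 0.15, adjusted p = 0.0010). Fhl1 (chrX:56731787-56793346), another LIM protein of muscle, was at 181, 155, 196 and 148 CPM against 77.8, 81.4 and 119 CPM (log2 0.92 ± 0.19, adjusted p = 0.0043). In both genes bC6FAE[2] well 3 was the highest of its medium and still below every bC6FAE[10] well. Without bC6FAE[2] well 1 the adjusted p of Acta1, Fhl1, Csrp1 and Myl9 was 0.194, 0.188, 0.0845 and 0.281. Calls were also lost without bC6FAE[2] well 2 for Acta1 (0.0753) and Fhl1 (0.0752), without bC6FAE[10] well 1 for Acta1 (0.0982) and without bC6FAE[10] well 4 for Myl9 (0.0916).

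Other well-known members of the contractile list did not pass the test. Tagln, which encodes transgelin, was at 127, 133, 149 and 141 CPM against 98.8, 119 and 126 CPM, a log2 difference of 0.28 with a 95% interval from -0.09 to 0.64. Cnn1 (calponin) had a log2 difference of 0.71 ± 0.27 (adjusted p = 0.375), and Actg2 (smooth muscle gamma-actin) one of 0.67 ± 0.27 (adjusted p = 0.477). Their intervals, from 0.19 to 1.23 and from 0.14 to 1.19, include the size seen for Acta2. On a list of 22 genes of the general actin cytoskeleton, 0 were called (edgeR), 1 was higher and 2 were lower at an unadjusted p under 0.05, and the median was 0.03. The lamin gene Lmna on that list was called lower with the 7 wells alone (adjusted p = 0.0084).

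**Figure D2:**
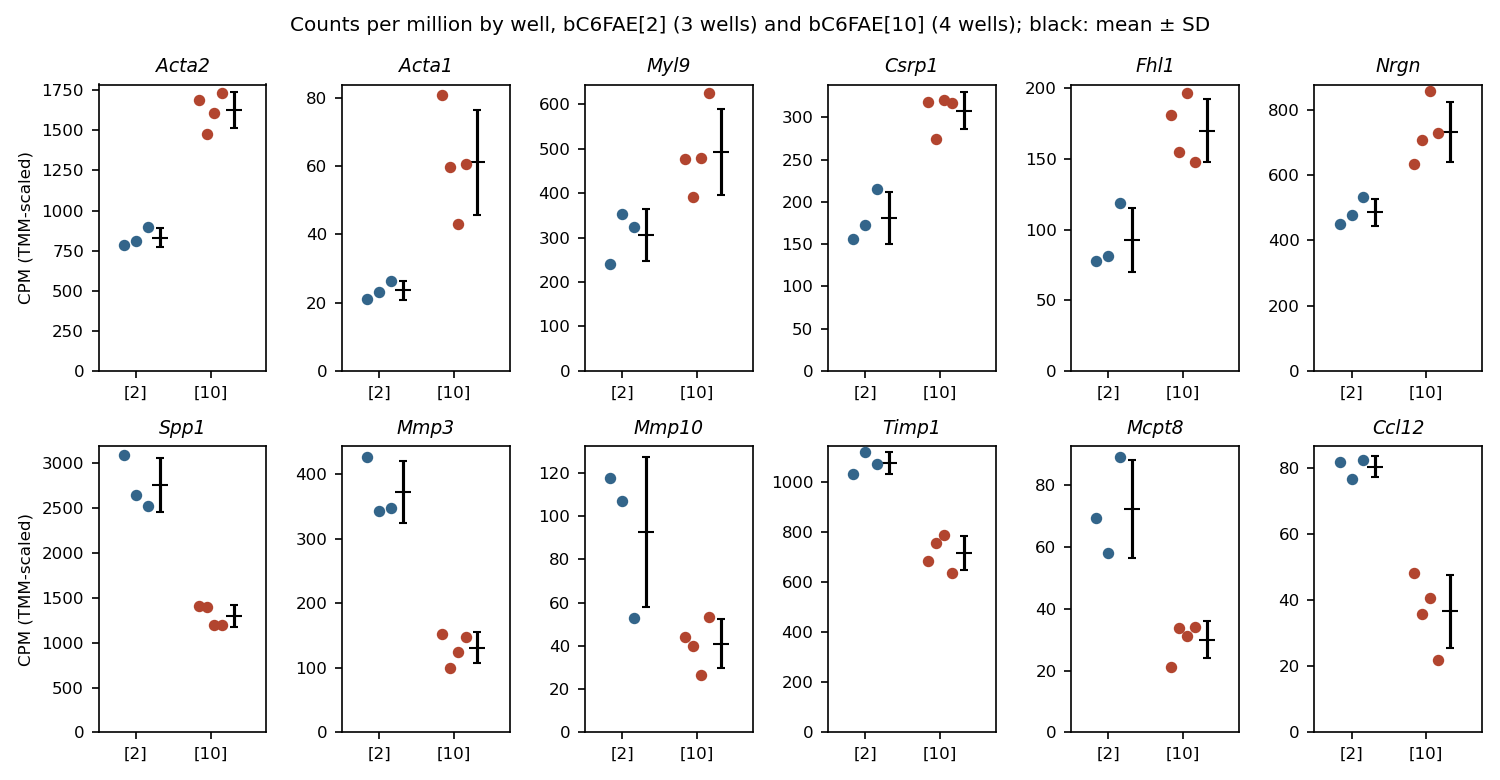
CPM (vertical axes, each from 0) of 12 called genes in each bC6FAE[2] well (blue, 3 points) and bC6FAE[10] well (red, 4 points), with black bars for mean ± SD. In the upper row each red point lies above each blue point; in the lower row each red point lies below each blue point, except that bC6FAE[10] well 4 (53.3 CPM) and bC6FAE[2] well 3 (52.9 CPM) touch for Mmp10.

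The matrix proteinase genes Mmp3 and Mmp10 and the inhibitor gene Timp1 fell. Of 22 tested genes on a list of matrix proteases and inhibitors, 3 were called lower and 0 higher, while the median log2 fold change of the list was 0.16, so the rest of the list did not go the same way. Wells did not overlap, bC6FAE[10] lower, for 3 of the 22, beside 5.14% of all tested genes, and bC6FAE[10] higher for 6 of the 22. With the 7 wells alone, the same 3 genes were called lower, and Serpinf1, Serpine2 and Htra1 were called higher (adjusted p = 0.020, 0.017 and 0.046). Mmp3 (chr9:7445822-7455975) encodes stromelysin-1, a secreted proteinase of broad range. It was at 152, 99.5, 125 and 148 CPM in bC6FAE[10] against 427, 342 and 347 CPM in bC6FAE[2], a log2 fold change of -1.51 ± 0.32 (adjusted p = 0.025). The groups lay far apart, yet the call was lost in each of the 7 fits that left out 1 well (adjusted p from 0.0536 without bC6FAE[10] well 1 to 0.234 without bC6FAE[2] well 1). It was also lost with library totals as the scaling (0.0569) and with the well number as a replicate block (0.0671). The call was kept with the 7 wells alone (edgeR, adjusted p = 3.6e-16) and without the wells MEF 3 and bC8FAE 4 (0.00091). DESeq2's Wald test kept it too (adjusted p = 0.0013).

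Mmp10 (chr9:7502352-7510240), the related stromelysin-2 gene, was at 44.3, 39.8, 26.4 and 53.3 CPM against 118, 107 and 52.9 CPM (log2 -1.23 ± 0.24, adjusted p = 0.0018). Here bC6FAE[2] well 3 was low, within the range of bC6FAE[10]. Without bC6FAE[2] wells 1 or 2 the adjusted p was 0.187 and 0.0581. Timp1 (chrX:20870166-20874735), a secreted inhibitor of metalloproteinases, was at 684, 754, 788 and 638 CPM against 1033, 1119 and 1070 CPM (log2 -0.58 ± 0.14, adjusted p = 0.024). The fall was small beside that of Mmp3, and the wells did not overlap. The Timp1 call was lost in 5 of the 7 fits without 1 well, with the highest adjusted p, 0.225, without bC6FAE[2] well 2. It was also lost with no robust estimate of the spread (0.0582). With the 7 wells alone it was kept (edgeR, adjusted p = 5.8e-07), as it was without the wells MEF 3 and bC8FAE 4 (9.3e-06). Timp3, another inhibitor, had the opposite sign and did not pass (129, 151, 161 and 138 against 92.5, 95.4 and 116 CPM, adjusted p = 0.208).

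Spp1 (chr5:104435118-104441050), which encodes the secreted phosphoprotein osteopontin, had the lowest adjusted p among the genes that fell. It was at 1413, 1399, 1196 and 1195 CPM in bC6FAE[10] and at 3095, 2645 and 2524 CPM in bC6FAE[2]. The means were 1301 ± 122 (SD, n = 4) and 2755 ± 301 CPM (SD, n = 3), a log2 fold change of -1.08 ± 0.16 (adjusted p = 2.2e-05, edgeR). Without 1 well the adjusted p reached at most 0.00091. Its exons overlap those of Gm42793, and no source used here says whether counting used strand. Spp1 stood on the list of cartilage and bone genes, where 2 were tested, and is also made by macrophages and fibroblasts.

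Mcpt8, a mast cell and basophil protease gene, was at 21.2, 33.8, 31.1 and 33.9 CPM in bC6FAE[10] and 69.4, 58.2 and 89.2 CPM in bC6FAE[2] (log2 -1.24 ± 0.25, adjusted p = 0.0032). Ccl12, a chemokine gene, was at 48.2, 35.8, 40.7 and 21.8 CPM against 82.0, 76.8 and 82.6 CPM (log2 -1.10 ± 0.26, adjusted p = 0.015). Neither gene had overlapping wells. Without bC6FAE[2] well 1 the adjusted p was 0.0634 for Mcpt8 and 0.188 for Ccl12. Without bC6FAE[2] well 3 it was 0.0556 and 0.0652, and for Ccl12 it was 0.148 without bC6FAE[10] well 4 and 0.0752 without bC6FAE[2] well 2. Macrophage markers (13 in the table) summed to 35.9 to 63.0 CPM in bC6FAE[10] and 61.0 to 79.3 CPM in bC6FAE[2], with 5 and 7 of them at 0. All 3 that could be tested were lower in bC6FAE[10], with a median of -0.78 and 0 called (edgeR). Cd68, a lysosomal protein of phagocytes, was lower by -0.78 ± 0.37 on the log2 scale, without overlap of the wells (unadjusted p = 0.038, adjusted p = 0.595). Ptprc, C1qb, Aif1 and Itgam were at 0 in all 7 wells, Cd14 in bC6FAE[10] alone, and C1qa, C1qc and Mrc1 in bC6FAE[2] alone. The part of these markers in the fall of Spp1, Mcpt8 and Ccl12 was not tested. Of 16 tested inflammatory and NF-kappaB genes, 0 were called (edgeR), 0 were higher and 1 was lower at an unadjusted p under 0.05, and the median was -0.002. The chemokine gene Ccl7 on that list was called higher with the 7 wells alone (adjusted p = 0.0041).

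Itpr3 and Hdac5 also fell. Itpr3 encodes a calcium release channel of the endoplasmic reticulum and was at 15.4, 13.9, 11.98 and 7.27 CPM against 27.3, 55.8 and 33.0 CPM (log2 -1.63 ± 0.37, adjusted p = 0.012). It was a low count, and bC6FAE[2] well 2 was the high one: without it the log2 fold change was -1.23 and the adjusted p 0.442. The call was also lost without bC6FAE[10] well 4 (0.0943). Hdac5 encodes a class II histone deacetylase that binds MEF2 factors. It was at 77.1, 69.7, 91.0 and 65.5 CPM against 132, 140 and 122 CPM (log2 -0.80 ± 0.17, adjusted p = 0.0059, and 0.107 without bC6FAE[2] well 1 or 0.0843 without well 2). Itpr3 shares exonic positions with Itpr3os and Mir7677, and Hdac5 with Mir8101. Exons also overlap for Cpxm2 (Gm15677), Tagln (Gm48529 and Pcsk7), Notum (Myadml2os and Notumos) and Axin2 (Gm11670).

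Matrix and secreted factor genes were among the largest rises, all at low counts. Col26a1 (chr5:136741759-136883209), a collagen gene, was at 67.4, 55.7, 76.7 and 97.0 CPM in bC6FAE[10] and 23.1, 16.3 and 36.3 CPM in bC6FAE[2] (log2 1.59 ± 0.37, adjusted p = 0.028). It was the 1 called gene of 27 tested collagens and matrix cross-linking genes, whose median was 0.20. Cpxm2, a carboxypeptidase-like secreted protein, was at 36.6, 29.9, 57.5 and 77.6 CPM against 14.7, 18.6 and 9.91 CPM (log2 1.70 ± 0.39, adjusted p = 0.012). Both genes lost their call in 5 of the 7 fits without 1 well, with adjusted p up to 0.289 for Col26a1 (without bC6FAE[2] well 2) and 0.198 for Cpxm2 (without bC6FAE[10] well 4). Smoc2, a calcium-binding matricellular protein, was at 75.2, 85.6, 67.1 and 55.8 CPM against 42.1, 11.6 and 26.4 CPM (log2 1.39 ± 0.29, adjusted p = 0.0043). Its call rested on bC6FAE[2] well 2, the low one: without it the log2 fold change was 1.00 and the adjusted p 0.246.

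Igfbp7, an insulin-like growth factor binding protein, was at 304, 370, 431 and 417 CPM against 210, 205 and 225 CPM (log2 0.83 ± 0.18, adjusted p = 0.017), and its exons overlap those of Polr2b. Its bC6FAE[2] wells lay close together and the bC6FAE[10] wells spread more widely above them. The Igfbp7 call was lost in 5 of the 7 fits without 1 well, with adjusted p up to 0.194 without bC6FAE[2] well 1. Cxcl14, a chemokine of resting fibroblasts and epithelia, was at 86.7, 71.7, 93.4 and 97.0 CPM against 23.1, 37.2 and 56.2 CPM (log2 1.23 ± 0.26, adjusted p = 0.0047). Its adjusted p was 0.281 without bC6FAE[2] well 1 and 0.0581 without well 2.

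Nrgn, Tubb2b and Nrep are best known from neurons. Nrgn (chr9:37544492-37552904) encodes neurogranin, a calmodulin-binding protein, and was at 634, 709, 858 and 729.7 CPM against 450.0, 477 and 532 CPM (log2 0.59 ± 0.12, adjusted p = 0.0032). Tubb2b, a beta-tubulin, was at 54.0, 57.7, 81.5 and 63.0 CPM against 16.8, 37.2 and 23.1 CPM (log2 1.29 ± 0.29, adjusted p = 0.011). Nrep was at 123, 109, 170.1 and 206 CPM against 69.4, 53.5 and 62.8 CPM (log2 1.27 ± 0.26, adjusted p = 0.011). No well of 1 medium reached into the other for these genes. Without bC6FAE[2] well 1 the adjusted p was 0.159 for Nrgn, 0.313 for Tubb2b and 0.139 for Nrep. Calls were also lost without bC6FAE[2] well 2 for Nrgn (0.0581) and Nrep (0.137), without bC6FAE[2] well 3 for Tubb2b and Nrep (0.0652 each) and without bC6FAE[10] well 3 for Tubb2b (0.0632). On the neural list Nrgn was the 1 called gene of 10 tested, of which 7 had a positive sign. Stmn2 and Uchl1 were higher and Nptx1 lower at an unadjusted p under 0.05. The list summed to 1490 to 1823 CPM in bC6FAE[10] and 1305 to 1378 CPM in bC6FAE[2], and without Nrgn to 818 to 966 and 828 to 894 CPM, with overlap. Of its 20 genes, Dcx, Syp and Gfap were at 0 in all 7 wells.

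The other called genes had smaller folds or less studied products. Oat, ornithine aminotransferase of the mitochondrion, was at 269.8, 269, 283 and 235 CPM against 143, 169.8 and 159 CPM (log2 0.75 ± 0.14, adjusted p = 0.0017, and 0.0845 without bC6FAE[2] well 1). Pla2g7, a secreted phospholipase that degrades platelet-activating factor, was at 634, 709, 757 and 667 CPM against 437, 442 and 439 CPM (log2 0.65 ± 0.13, adjusted p = 0.0032). The 3 bC6FAE[2] wells nearly coincided. Pla2g7 had an adjusted p of 0.08 without bC6FAE[2] well 1 and 0.0534 without well 2. Vat1l rose by 1.51 ± 0.38 on the log2 scale, Maged1 by 0.57 ± 0.13 and Mlec by 0.55 ± 0.13, and 1110001J03Rik fell by 1.04 ± 0.25 and Oaf by 0.54 ± 0.13. Their adjusted p was 0.033, 0.012, 0.024, 0.021 and 0.017. Each of these lost its call in at least 3 of the fits without 1 well, with adjusted p up to 0.265 (Vat1l, without bC6FAE[2] well 3), 0.39 (Maged1, bC6FAE[2] well 2), 0.242 (Mlec, bC6FAE[2] well 3), 0.333 (1110001J03Rik, bC6FAE[2] well 2) and 0.234 (Oaf, bC6FAE[2] well 1).

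With all 30 wells in the fit, the Wnt, BMP, TGF-beta and ERK lists had no called gene. Of 17 tested genes on the Wnt list, 0 were called. At an unadjusted p under 0.05, 7 (Nkd1, Nkd2, Notum, Dkk3, Sp5, Sfrp1 and Kremen1) were higher and 0 lower. Of all tested genes 4.11% were higher and 3.68% lower at that level. The median of the list was 0.52. With the 7 wells alone in the fit, 3 genes of the Wnt list were called higher: Notum (adjusted p = 0.0040), Nkd1 (0.0039) and Kremen1 (0.0068). Notum, an enzyme that inactivates Wnt ligands, was at 123, 113, 101 and 145 CPM against 69.4, 72.1 and 62.8 CPM (log2 0.81 ± 0.22, adjusted p = 0.074). Its wells did not overlap. Nkd1, a feedback inhibitor of Wnt signalling, was at 301, 287, 285 and 315 CPM against 191, 219 and 211 CPM (log2 0.52 ± 0.15, adjusted p = 0.132). Axin2, the most used readout of the pathway, had few counts (27.5 ± 6.77 against 18.2 ± 4.50 CPM, n = 4 and n = 3), and its interval, -0.18 to 1.31, spans 0. Wif1 had a log2 difference of 0.22 ± 0.40.

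Msx1, a homeobox gene induced by BMP, lay just outside the threshold, at the same adjusted p as Penk, Fscn1, Ercc1, Calca, Igfbp2 and E030030I06Rik. It was at 488, 418, 486 and 528 CPM in bC6FAE[10] and 305, 233 and 261 CPM in bC6FAE[2] (log2 0.84 ± 0.20, adjusted p = 0.052), and the wells lay apart. Msx1 passed in 9 of the alternatives, with adjusted p between 4.6e-08 (the 7 wells alone) and 0.047 (DESeq2's size factors). Leaving out 1 well gave 0.041 (without bC6FAE[10] well 2, the only one that passed) to 0.332. It was the 1 gene that DESeq2's Wald test called and edgeR's test did not, so the lists with 0 calls here, other than the BMP list, had 0 in DESeq2 too. Bmp4 was at 106, 81.6, 113 and 124 CPM against 58.9, 79.1 and 33.0 CPM (adjusted p = 0.098, and 0.014 with the 7 wells alone). Of the 12 tested BMP genes, 3 (Msx1, Bmp4 and Id2) were higher and 0 lower at an unadjusted p under 0.05. Over all tested genes 4.11% were higher and 3.68% lower at that level. Wells did not overlap, bC6FAE[10] higher, for 4 of the 12, beside 5.08% of all tested genes. The list's median was 0.04. Aqp1, a water channel gene, had a log2 difference of 0.34 ± 0.17 (adjusted p = 0.651). Cdk8, the gene named in the series title, did not pass the filter on low counts (11.8 against 14.1 CPM), and nor did its cyclin gene Ccnc (3.29 against 4.78 CPM). Cdk19, its close relative, had a log2 difference of 0.05 ± 0.84, so at this depth no change of these 3 genes was detectable.

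With all 30 wells in the fit, fibroblast identity and growth genes gave no call. Of 27 tested fibroblast genes 0 were called (edgeR), 6 were higher and 1 lower at an unadjusted p under 0.05, and the median was 0.17. Col1a1 was at 202 ± 29.3 against 145 ± 9.31 CPM, and Col3a1 at 197 ± 27.6 against 126 ± 10.8 CPM (SD, n = 4 and n = 3), with adjusted p of 0.274 and 0.509. With the 7 wells alone Col3a1 was called (adjusted p = 0.0031), the 1 such gene on the fibroblast list. Of 15 TGF-beta response genes, 11 ERK targets, 28 genes of DNA replication and S phase and 25 of G2/M phase, 0 were called, with medians of 0.09, -0.14, 0.04 and 0.13. At an unadjusted p under 0.05, 3 TGF-beta genes were higher and 1 lower, 1 G2/M gene was higher and 1 lower, and the other lists had 0. Tgfbi was the 1 gene called on these 4 lists with the 7 wells alone (adjusted p = 0.027). The unadjusted p was under 0.05 for 544 of all tested genes (7.79%).

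**Figure D3:**
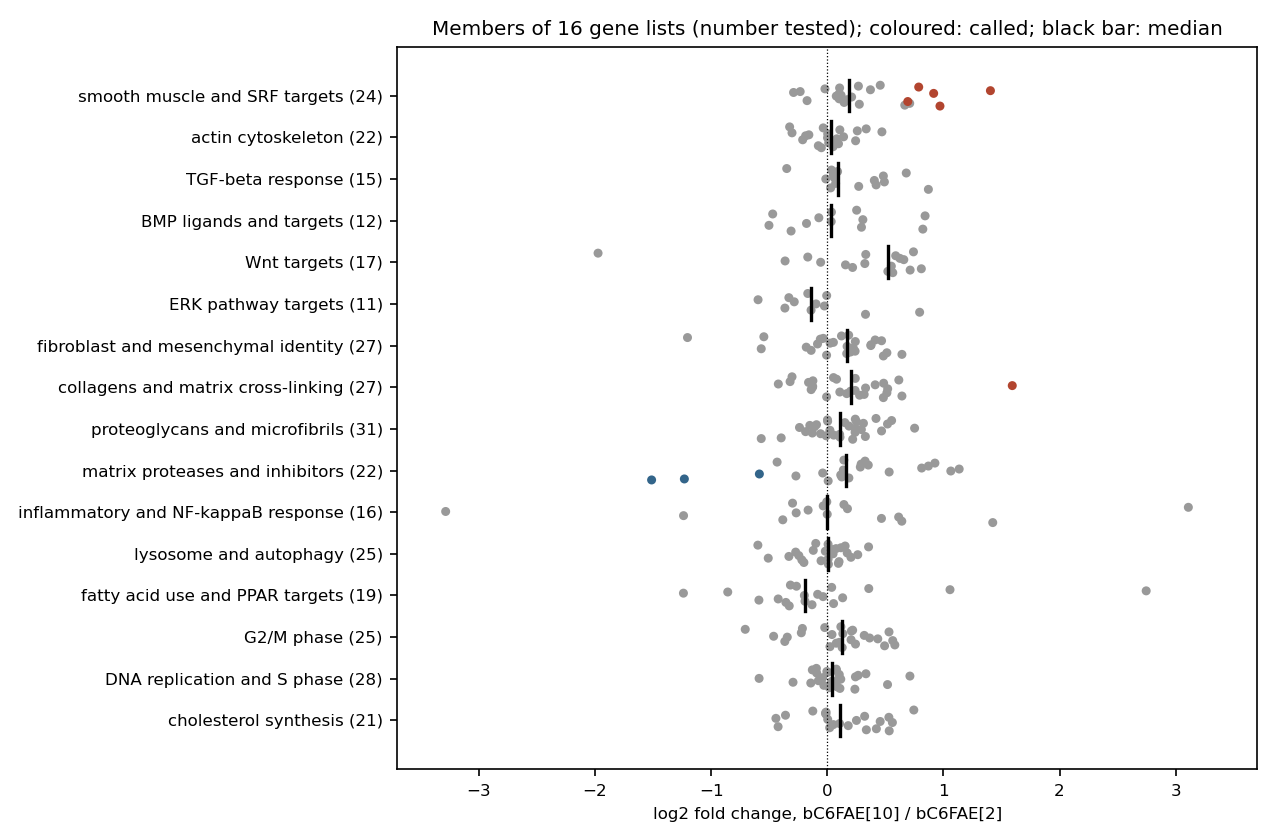
Log2 fold change of bC6FAE[10] over bC6FAE[2] (horizontal axis) for each tested member of 16 gene lists (rows, number tested in brackets), coloured where called, with a black bar for the median. The 5 red points of the smooth muscle row lie right of 0, where the uncalled Cnn1 (0.71) lies beyond the called Myl9 (0.69). The 3 blue points of the matrix protease row lie left of 0, and the Wnt row has its median at 0.52 with no called gene.

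The medium bCFAE, whose name lacks the number 6, gave a common point of reference. In bC6FAE[10], 963 genes (13.8%) differed from bCFAE, and in bC6FAE[2], 609 (8.72%). The counts rest on 4 wells of bC6FAE[10] and 3 of bC6FAE[2], so their sizes are not like for like. Both counts share the bCFAE wells, and each shares its own wells with the comparison above, so the positions below are a description. Acta2 was at 1348 ± 104 CPM in bCFAE (SD, n = 3). Against that level it was lower in bC6FAE[2] (log2 -0.70 ± 0.15, adjusted p = 0.00032), and in bC6FAE[10] its difference was 0.27 ± 0.13 (adjusted p = 0.195). Fhl1 (-0.84 ± 0.20 and 0.07 ± 0.16) and Acta1 (-1.71 ± 0.31 and -0.30 ± 0.22) had the same order. For these 3 genes bC6FAE[2] lay below bCFAE, and the difference between bC6FAE[10] and bCFAE missed the threshold.

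Other called genes moved further from bCFAE in bC6FAE[10]. Nrgn was 2.46 ± 0.16 above bCFAE on the log2 scale in bC6FAE[2] and 3.05 ± 0.14 above in bC6FAE[10]. Col26a1 was 3.66 ± 0.80 and 5.25 ± 0.57 above, from 2.02 CPM in bCFAE. Timp1 was at -1.03 ± 0.15 and -1.61 ± 0.14, and Mcpt8 at -1.36 ± 0.19 and -2.60 ± 0.20. Spp1 differed little between bC6FAE[2] and bCFAE (-0.17 ± 0.16, adjusted p = 0.645) and was lower in bC6FAE[10] (-1.25 ± 0.15). Mmp3 had the same pattern (0.21 ± 0.30 and -1.30 ± 0.31). Counted over the 18 higher genes, the means ran in the order bCFAE, bC6FAE[2], bC6FAE[10] for 11, and for 6 bCFAE lay between the other media. Over the 10 lower genes these counts were 6 and 4. The same counts over all tested genes were not taken, so whether these orders are particular to the called genes is not known. The choice of genes by bC6FAE[2] and bC6FAE[10] also fixes part of them.

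**Figure D4:**
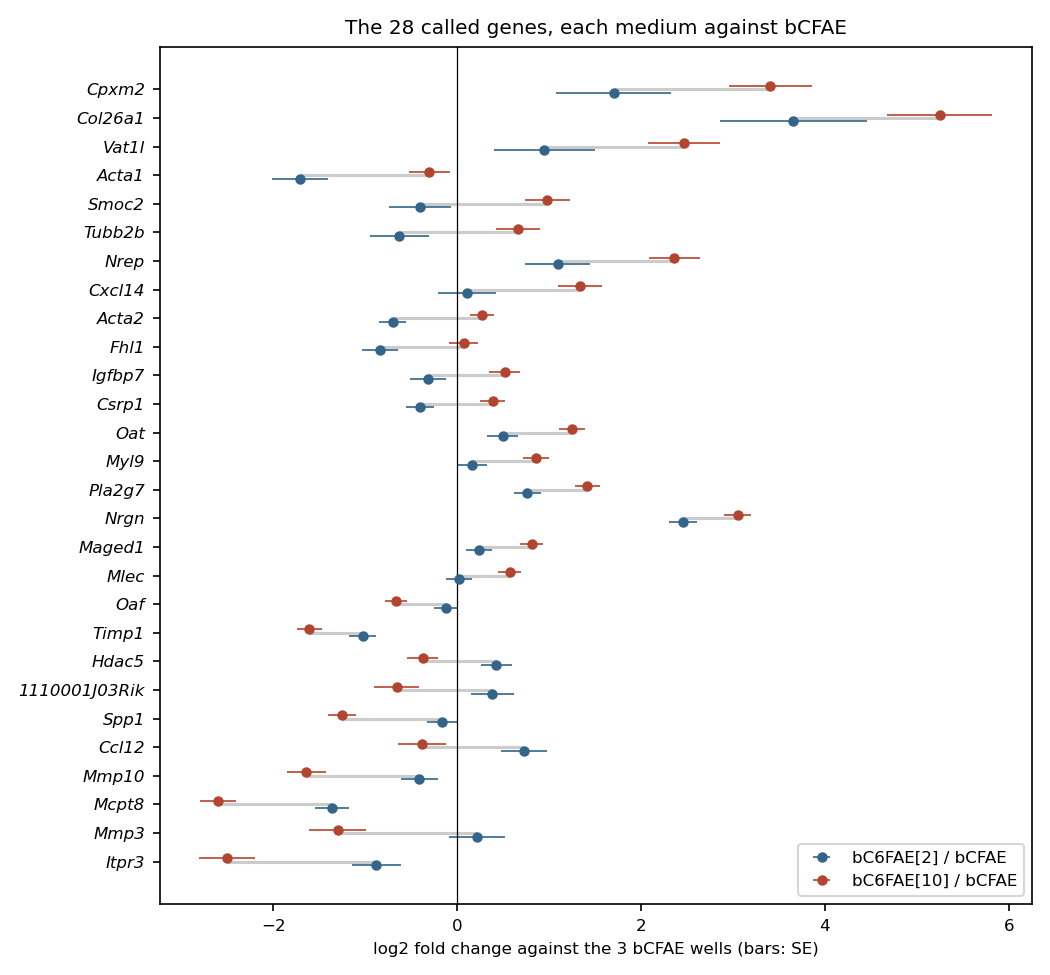
Log2 fold change against the 3 bCFAE wells (horizontal axis, bars are SE) of bC6FAE[2] (blue) and bC6FAE[10] (red) for the 28 called genes, from the largest rise to the largest fall between them. Acta1, Acta2 and Fhl1 have a blue point left of 0 and a red point near 0, while Nrgn and Col26a1 have both points to the right and Timp1 and Mcpt8 both to the left.

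The wells named bC8FAE, bCLFAE and bCSFAE place the step in a wider range. Mean Acta2 was 129 CPM in bC8FAE, 229 in bCLFAE and 178 in bCSFAE, below the 831 of bC6FAE[2], and 2249 in MEF and 2959 in basal, above the 1625 of bC6FAE[10]. Fhl1 was at 15.2, 42.0 and 30.0 CPM in the first 3 and at 203 and 267 CPM in MEF and basal. Mmp3 was at 397, 317 and 488 CPM in the first 3 and at 744 and 401 CPM in the last 2, all above the 131 of bC6FAE[10]. Mmp10 was at 143, 142 and 261 CPM in the first 3 and at 5.81 and 3.23 CPM in the last 2. So for Acta2 and Mmp10 the mean of bC6FAE[10] lay between that of bC6FAE[2] and those of MEF and basal, and for Mmp3 it lay outside them.

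Among the 6 media with FAE in their name, 17 of the 18 higher genes had their highest mean in bC6FAE[10], with Acta1, at 75.3 CPM in bCFAE, as the exception. Of all tested genes 18.7% had their highest mean there. For 12 of the 18 each bC6FAE[10] well was above each of the 19 other FAE wells, which held for 0.959% of all tested genes. All 10 lower genes had their lowest mean in bC6FAE[10], as did 20.4% of all tested genes. For Itpr3, Mmp3, Hdac5 and Oaf the 4 bC6FAE[10] wells were below all 19 others, which held for 0.472% of all tested genes. The genes were chosen by their difference from bC6FAE[2], which is 1 of these media, so part of this is fixed by the choice. In bC8FAE, 14 of the 18 higher genes had a mean below that of bC6FAE[2], as did 3 of the 10 lower genes. The share of all tested genes with such a mean was not computed, so whether these counts stand out is not known. Over all tested genes, 643 differed between bC8FAE and bC6FAE[10] (253 higher and 390 lower in bC8FAE) and 136 between bC8FAE and bC6FAE[2] (41 and 95). The 2 counts share the bC8FAE wells, and bC6FAE[10] has 4 wells where bC6FAE[2] has 3.

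**Figure D5:**
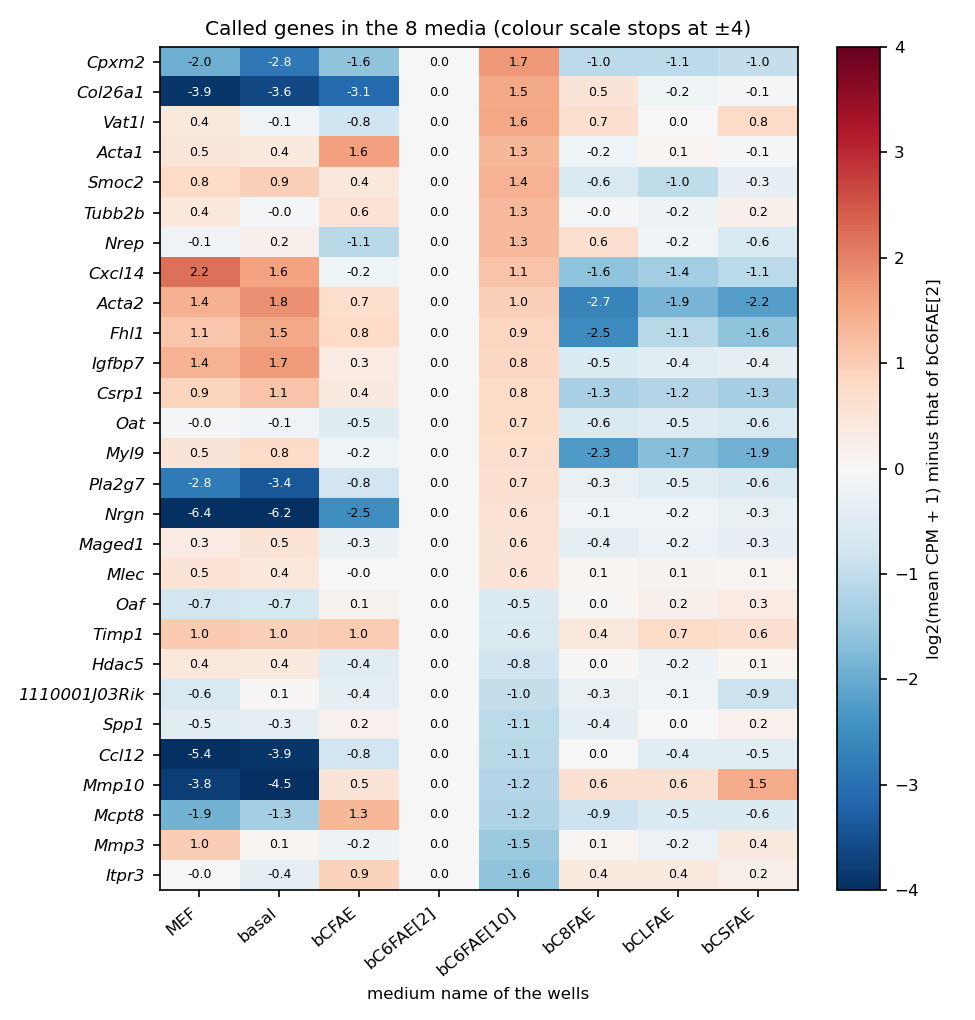
Mean level of the 28 called genes (rows) in the 8 media (columns), as log2 of mean CPM plus 1 minus the same in bC6FAE[2]; the colour scale stops at ±4 and numbers give the value. The bC6FAE[10] column is red for the 18 higher genes and blue for the 10 lower ones, Acta2, Fhl1, Csrp1 and Myl9 are blue in bC8FAE, bCLFAE and bCSFAE, and Nrgn, Ccl12 and Mmp10 are deep blue in MEF and basal.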

How the data were processed

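DRUG-seq2 was run on mouse embryonic fibroblasts in plates, 1 library per plate. The authors deposited a table of whole-number counts per gene and well (20471 genes, 26 with names turned into dates), with no scaling, as its values show. The submitters' processing notes name STAR and mm10. No source used here gives the counting tool, its annotation, its use of strand or any collapsing of molecular identifiers. Plates were read from the deposited well lists, which hold well names and barcodes and no measurements. The fit used 30 columns, and 244 columns were not used.

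Counts were analysed in R 4.3.3 with edgeR 4.0.16: filterByExpr (minimum count 10), TMM scaling, glmQLFit (robust) and glmQLFTest over 6985 genes, each medium a group and no covariate, with Benjamini-Hochberg adjustment and calls at 0.05. SE is the absolute log2 fold change over the root of F, and intervals are 95%. CPM are counts per 1000000 of TMM-scaled totals; the unscaled totals were 325730 to 530273 counts in the 7 wells. The fit was tested on simulated data, in which the spread followed a gene's level alone. Changes of 1.5-, 2-, 3- and 4-fold were recovered for 11, 32, 44 and 41 of 50 genes each. Of 6602 unchanged genes, 2 were called. DESeq2 1.42.0 was an alternative. Gene positions came from GENCODE on mm10 and promoters from RefSeq (GRCm38.p6). Named genes were the 12 largest rises and falls among calls of at least 10 CPM without overlap, up to 4 calls per list and 14 genes fixed by name (Acta2, Actg2, Tagln, Cnn1, Fhl1, Msx1, Aqp1, Notum, Nkd1, Axin2, Wif1, Cdk8, Cdk19 and Ccnc). Oat, Pla2g7, Maged1, Mlec and 1110001J03Rik were named because they were called, and other genes that are neither called nor in this rule after their values were seen. The wells, the 46 gene lists and the tests were chosen with earlier results of these data known.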

Additional observations from a re-analysis of the deposited data

Results flagged for a closer look

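In 2 called genes 1 of the 4 bC6FAE[10] wells stood apart from the other three by Dixon's 95% criterion, out of 45 values examined; chance gives about 1 in 20. Csrp1 was at 274.7 CPM in bC6FAE[10] well 2, below 318, 321 and 317.6 CPM in the other wells (gap over range 0.925). 1110001J03Rik was at 45.52 CPM in bC6FAE[10] well 3, above 32.76, 33.84 and 33.94 CPM (0.908), and within the range of bC6FAE[2].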

How the results depend on the processing

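All 28 called genes kept their direction in all 16 alternatives run for each, and 26 lost the call in at least 1 of them. The number of higher genes, 18, was 8 at 2-fold or more, 30 with no filter on low counts, 49 with the 7 wells alone and 29 without the wells MEF 3 and bC8FAE 4, which have the lowest totals; without 1 of the 7 wells it was 2 to 27. The number of lower genes, 10, was 39 with the 7 wells alone and 20 without MEF 3 and bC8FAE 4; without 1 well it was 2 to 8. DESeq2's Wald test called 16 and 8, DESeq2's size factors 24 and 10, library totals 23 and 9. Chosen after seeing the data, a fit with no robust estimate of the spread called 19 and 10, and one without mitochondrial and ribosomal protein genes 23 and 11. The cause of these shifts was not tested. The well number as a replicate block gave 21 and 12, with 25 of the 28 genes shared. The deviations of same-numbered wells from their medium's mean correlated at 0.043, 0.009 and -0.005, beside -0.0234 to 0.0293 for wells of different number. Such deviations also hold count noise, so these values cannot settle whether the numbers pair the wells. With 3 and 4 wells of 325730 to 530273 counts, the median SE of a log2 fold change was 0.27, so changes well under 2-fold in genes of low count could not be called.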

Other observations

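With only the 7 wells in the fit (5581 genes tested), 88 genes (1.58%) passed an adjusted p of 0.05 in edgeR's test, the 28 described above and 60 others, 31 higher and 29 lower in bC6FAE[10]. None of these 60 passed with all 30 wells, and those named here were picked after their values were seen. Penk, the enkephalin precursor, was at 435 ± 42.0 against 297 ± 40.1 CPM (SD, n = 4 and n = 3), a log2 fold change of 0.55 ± 0.11 and higher in bC6FAE[10]. Calca, which encodes calcitonin and a related peptide, was at 62.8 ± 14.1 against 28.9 ± 5.24 CPM, and Pnoc, the nociceptin precursor, at 44.5 ± 12.1 against 18.4 ± 7.15 CPM. Ramp3, a subunit of receptors for peptides of the calcitonin family, was at 649.6 ± 85.7 against 467 ± 15.8 CPM. Igf2, a fetal growth factor, was at 3475 ± 189 against 2584 ± 522 CPM, and its binding proteins Igfbp4 and Igfbp2 were at 418 ± 61.2 against 282 ± 9.27 CPM and at 51.2 ± 16.9 against 19.9 ± 6.26 CPM. Wnt4, a Wnt ligand, was at 167 ± 41.9 against 91.5 ± 21.0 CPM.

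Of the genes lower in that fit, Lgals3, which encodes galectin-3, was at 154 ± 29.0 against 240.3 ± 41.6 CPM (log2 -0.64 ± 0.14), and Gpnmb, a lysosomal and melanosomal glycoprotein, at 119.5 ± 10.8 against 182 ± 4.86 CPM (log2 -0.59 ± 0.14). Capg, an actin-capping protein, was at 139 ± 26.6 against 204 ± 19.7 CPM, and Tspo, an outer mitochondrial membrane protein, at 226 ± 20.3 against 325 ± 13.5 CPM. Plin2, the lipid droplet coat protein, and Angptl4, a secreted inhibitor of lipoprotein lipase, were at 458 ± 38.9 against 585 ± 40.1 CPM and at 774 ± 66.2 against 969 ± 72.1 CPM. Mmp19, another metalloproteinase gene, was at 23.1 ± 3.21 against 50.1 ± 8.52 CPM.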
